A study of Mus musculus with 220 samples.

Results

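Ubd encodes a ubiquitin-like protein, also called FAT10, and its transcript was among the most abundant of the high endothelial cells of mouse lymph nodes. It is 1 of the 24049 genes of the expression table, chosen by its name and because earlier results of these data had shown its high level, so its levels and the contrasts between groups are given as descriptions without a test. Lymph nodes of C57BL/6 mice supplied the sorted endothelial cells, and RNA of single cells, each captured on the Fluidigm C1 system, was sequenced from a library of its own. High endothelial cells (HEC) line the venules through which lymphocytes pass from blood into the node, and blood endothelial cells (BEC) are the other cells of its blood vessels. The 44 dedifferentiated HEC came from mice given 1 intraperitoneal dose of LTBR-Ig, a decoy receptor for lymphotoxin, and were taken on day 7. The 65 inflamed HEC came from mice whose skin had received 4% oxazolone, a sensitising chemical, with harvest on day 3. The 79 homeostatic HEC and the 32 BEC, also homeostatic, came from untreated mice of the same strain. No control antibody or vehicle group was analysed here.

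The labels give no animal, pool, chip or capture day, every group was therefore treated as 1 sample, and group, chip and day cannot be told apart. Cells are not replicates of a condition. For that reason no p-value is given, and every SD is a spread over cells. A pair of inflamed cells had nearly the same profile (r 0.988 over genes, where the next most similar pair of the series had 0.701). It was averaged, leaving 64 inflamed HEC among 219 cells. Levels are FPKM, which correct the fragments of a gene for its transcript length and for the fragments mapped in that cell, so they can be set side by side between genes. Approximate depths ran from 763000 to 5507000 fragments per cell, with group medians between 1931000 and 2289000. A cell was taken to carry the high endothelial programme when at least 3 of 5 marker genes (Glycam1, Fut7, Chst4, Gcnt1, Ackr1) had an FPKM of 10. This was so in 37 of 44 dedifferentiated HEC, 62 of 64 inflamed HEC, 75 of 79 homeostatic HEC and 0 of 32 BEC. At least 3 markers of another cell type, mostly of B lymphocytes or leukocytes in general, were found in 1 dedifferentiated, 3 inflamed and 7 homeostatic HEC, whose Ubd values lay between 130.9 and 12197 FPKM.

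The Ubd protein holds a pair of ubiquitin-like domains in tandem. In human and mouse cells it is activated by the enzyme Uba6, passed on by the conjugating enzyme Ube2z and attached to other proteins, which are then broken down by the proteasome. Its gene is known to be induced by interferon-γ and tumour necrosis factor, and its transcript is known from lymphoid organs, including mature dendritic cells and B cells. High endothelial cells depend on lymphotoxin signals, which act through NF-kB, to keep their plump shape and their supply of L-selectin ligands.

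In GRCm38 the gene lies on the plus strand of chromosome 17, from 37193892 to 37196095, with 2 exons of 81 and 850 bases, a 5′ untranslated part of 60 bases and a 3′ untranslated part of 385 bases. The 250 bases before the annotated start, chr17:37193642-37193891 on the plus strand of GRCm38.p6, are taken from RefSeq and printed 5′ to 3′. They are shown because Ubd is so much higher in one endothelial cell type than in the other. Capitals mark matches to GGGNNNTTC, a κB-like motif searched on both strands.

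Ubd promoter: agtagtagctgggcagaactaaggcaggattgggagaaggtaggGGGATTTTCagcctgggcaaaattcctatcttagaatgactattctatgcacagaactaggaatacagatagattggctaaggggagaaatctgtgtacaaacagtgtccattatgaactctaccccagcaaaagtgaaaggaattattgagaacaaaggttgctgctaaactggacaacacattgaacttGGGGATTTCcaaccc

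The matches lie at -206 to -198 and at -15 to -7 from the start, both on the plus strand and not overlapping. The motif was picked after the sequence had been seen, and it occurs in 11.8% of the 32851 promoter windows of the same length in the table. Only the match nearer the start is followed by a further C, a longer form found in 4.65% of windows. An interferon-response-like motif, GAAANNGAA, searched on both strands, was not in the Ubd window and was in 7.13% of all windows. These matches describe letters only and say nothing of binding.

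The nearest genes on either side were at 0 in most cells. They are olfactory receptor genes: Olfr94, on the minus strand, has its near end 330 bases after Ubd, Olfr95 lies 11855 bases after it, and Olfr93 and Olfr92 lie 32398 and 73804 bases before it. Olfr95 was at 0 in all cells, Olfr94 was above 0 in 3 inflamed HEC, Olfr93 in 3 inflamed HEC, at up to 333.0 FPKM, and in 1 homeostatic HEC, and Olfr92 in 2 dedifferentiated, 1 inflamed and 2 homeostatic HEC. H2-M3, an antigen-presenting class Ib gene 74125 bases away, had medians of 0.93 FPKM in dedifferentiated HEC, 0.76 in inflamed HEC, 1.44 in homeostatic HEC and 0.35 in BEC. It was above 0 in 34, 48 and 54 cells of these HEC groups and in 18 BEC, and reached 406.2, 831.5 and 784.6 FPKM in HEC and 399.4 in BEC. Both the medians and the highest values of these genes lay far under those of Ubd in HEC.

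Ubd stood high in nearly every high endothelial cell and low in every blood endothelial cell. Its lowest, median and highest values were 6.88, 2532 and 27600 FPKM in dedifferentiated HEC. They were 308.5, 6455 and 24186 FPKM in inflamed HEC, and 71.2, 5835 and 16301 FPKM in homeostatic HEC. In BEC they were 3.32, 10.7 and 228.9 FPKM. All 219 cells had at least 1 FPKM, and the groups differed at higher limits.

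**Figure D1:**
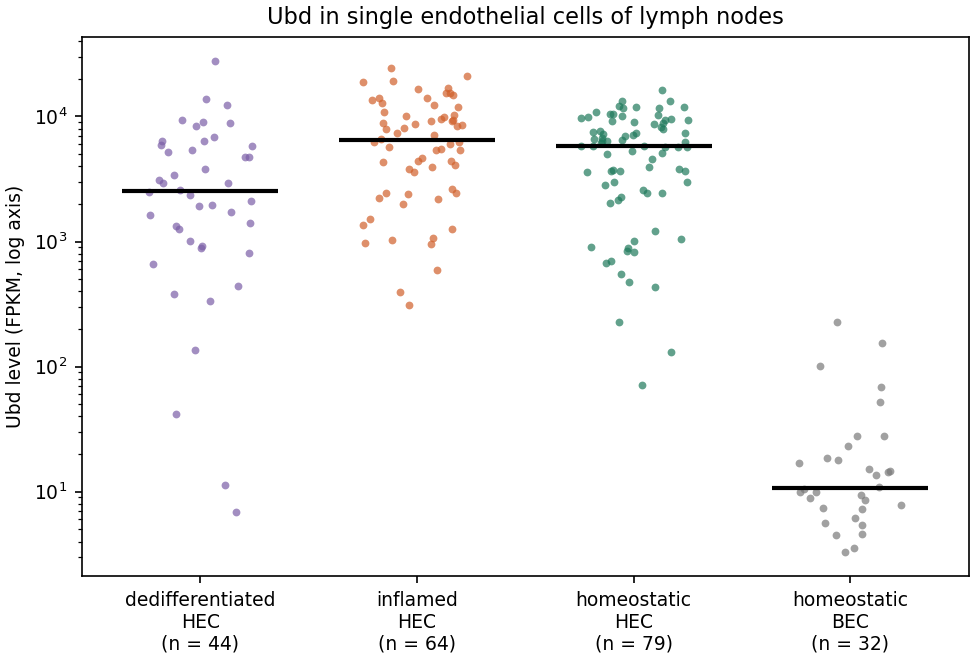
Ubd level of each cell in FPKM on a log axis, by group, with points for cells and black bars for medians. The medians are 2532, 6455, 5835 and 10.7 FPKM from left to right, and a tail of low cells is seen in dedifferentiated HEC.

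At least 1000 FPKM was reached by 33 of 44 dedifferentiated HEC (75%, exact Clopper-Pearson 95% interval 59.7% to 86.8%). It was reached by 59 of 64 inflamed HEC (92.2%, 82.7% to 97.4%), by 67 of 79 homeostatic HEC (84.8%, 75% to 91.9%) and by 0 of 32 BEC, where the interval runs up to 10.9%. These intervals cover counting error over cells only. At least 10000 FPKM was found in 3 dedifferentiated, 18 inflamed and 13 homeostatic HEC.

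Within a cell, Ubd often ranked among the leading transcripts. Its median rank by FPKM was 23.5 in dedifferentiated HEC, 6 in inflamed HEC, 6 in homeostatic HEC and 1510.5 in BEC. It was among the 10 highest genes of 14 dedifferentiated, 42 inflamed and 50 homeostatic HEC and of no BEC, and it ranked first in at least 1 inflamed cell. As a share of the summed FPKM of the cell it had medians of 0.393% in dedifferentiated HEC, 1.13% in inflamed HEC, 0.83% in homeostatic HEC and 0.0023% in BEC. The highest share in a single cell was 4.16%, in a dedifferentiated HEC.

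On the scale of log2(FPKM + 1), which understates ratios of low genes, Ubd averaged 10.86 ± 2.46 in dedifferentiated HEC (SD over cells, n = 44). It averaged 12.36 ± 1.46 in inflamed HEC (n = 64), 11.94 ± 1.63 in homeostatic HEC (n = 79) and 3.97 ± 1.43 in BEC (n = 32). The order of levels was thus inflamed, homeostatic and dedifferentiated HEC and then BEC. Inflamed and homeostatic HEC differed by 0.42, and dedifferentiated and homeostatic HEC by -1.08. As a log2 ratio of arithmetic means the difference of dedifferentiated from homeostatic HEC was -0.49. These differences were smaller than the SD over the cells of either group. The step from dedifferentiated HEC down to BEC, a difference of 6.89, was larger than either SD.

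Homeostatic HEC exceeded BEC by 7.97 in Ubd, against a median of 0.28 over the 9248 genes compared. Only 3 of these genes had a larger difference, Glycam1 (8.91) and Ccl21a (8.88) among them. A difference of 1 or more was found in 17% of these genes and one of -1 or less in 4.4%. For inflamed HEC set against the same BEC the difference in Ubd was 8.39, and no gene of 9357 had a larger one. For dedifferentiated HEC it was 6.89, with 4 genes of 8385 above it. These comparisons share the BEC and are not independent of each other.

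The groups of cells nevertheless overlapped at their edges. At or under the highest BEC, at 228.9 FPKM, lay 4 dedifferentiated HEC, 3 homeostatic HEC and 0 inflamed HEC. The 3 lowest dedifferentiated HEC, at 6.88, 11.4 and 42 FPKM, lay under all homeostatic HEC. The cell at 6.88 and the cell at 42 FPKM had 2 of the 5 high endothelial markers at 10 FPKM, and the cell at 11.4 FPKM had 4. The lowest homeostatic HEC, at 71.2 FPKM, had all 5 markers and a Glycam1 value of 14.14 on the log2 scale. A low Ubd value was thus seen both in a cell with all 5 markers and in cells with 2 of them at 10 FPKM. The cells at 6.88 and 42 FPKM still had Glycam1 values of 9.80 and 12.72 on the log2 scale.

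At the upper edge, 1 dedifferentiated HEC and 6 inflamed HEC lay above every homeostatic HEC. The dedifferentiated cell had 27600 FPKM of Ubd and a Glycam1 value of 10.42 on the log2 scale, under the dedifferentiated median of 12.78 for that gene. The 7 dedifferentiated HEC with under 3 high endothelial markers had between 6.88 and 1416 FPKM of Ubd. The 2 such inflamed HEC had 1527 and 8013 FPKM, and the 4 such homeostatic HEC had between 130.9 and 1010 FPKM. Without these cells, a choice made after the data had been seen and with markers that move with Ubd, the difference between dedifferentiated and homeostatic HEC was -0.63 in place of -1.08.

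Ubd varied more between cells than genes of similar mean level did in the HEC groups. Among genes whose mean lay within 1 log2 unit of it, its SD was larger than that of 51 of 52 genes in dedifferentiated HEC, 12 of 14 in inflamed HEC and 14 of 15 in homeostatic HEC. The median SD of those genes was 0.99, 0.73 and 0.63 in the same 3 groups. In BEC, at a far lower level, only 50 of 868 such genes had a smaller SD than Ubd. The middle cells of a group were less far apart than the extremes: the upper quartile over the lower quartile was 5.96 in dedifferentiated, 4.03 in inflamed and 3.57 in homeostatic HEC and 2.68 in BEC.

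The low values of BEC rest on few fragments. The approximate number of Ubd fragments had a median of 19.3 in BEC, with a lowest value of 5.6, against medians of 4341 in dedifferentiated, 10962 in inflamed and 8490 in homeostatic HEC. Glycam1 and Ccl21a, which mark HEC, were also above 0 at low levels in all 32 BEC, while Chst4 was in 29 and Fut7 in 24. The BEC mean was 0.49% of the homeostatic HEC mean for Ubd, 0.123% for Glycam1, the secreted mucin that carries L-selectin ligands, and 0.107% for Ccl21a, a chemokine for naive lymphocytes. By medians the value for Ubd was 0.184%, since 3 BEC had over 100 FPKM. In those 3 cells, at 101.9, 155.0 and 228.9 FPKM, 1 of the 5 high endothelial markers reached 10 FPKM. Across BEC, Ubd had r -0.01 with Glycam1 and 0.56 with the number of genes detected. Whether the low level in BEC comes from transcription in those cells or from RNA of other cells was not tested.

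Cells with more Ubd also had more Glycam1 in each HEC group. Correlations are Pearson r of log2(FPKM + 1) across the cells of a group. They describe cells that share a capture and a depth range, and carry no p. Glycam1 had r 0.57 in dedifferentiated HEC (n = 44), 0.62 in inflamed HEC (n = 64) and 0.70 in homeostatic HEC (n = 79), but -0.01 in BEC (n = 32). It had the highest r of all genes ranked in dedifferentiated and in homeostatic HEC, and also over all 219 cells (0.80), where the r mixes differences between groups with those within them. Without the 2 cells farthest in Ubd it was 0.55, 0.58 and 0.75 in dedifferentiated, inflamed and homeostatic HEC.

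**Figure D2:**
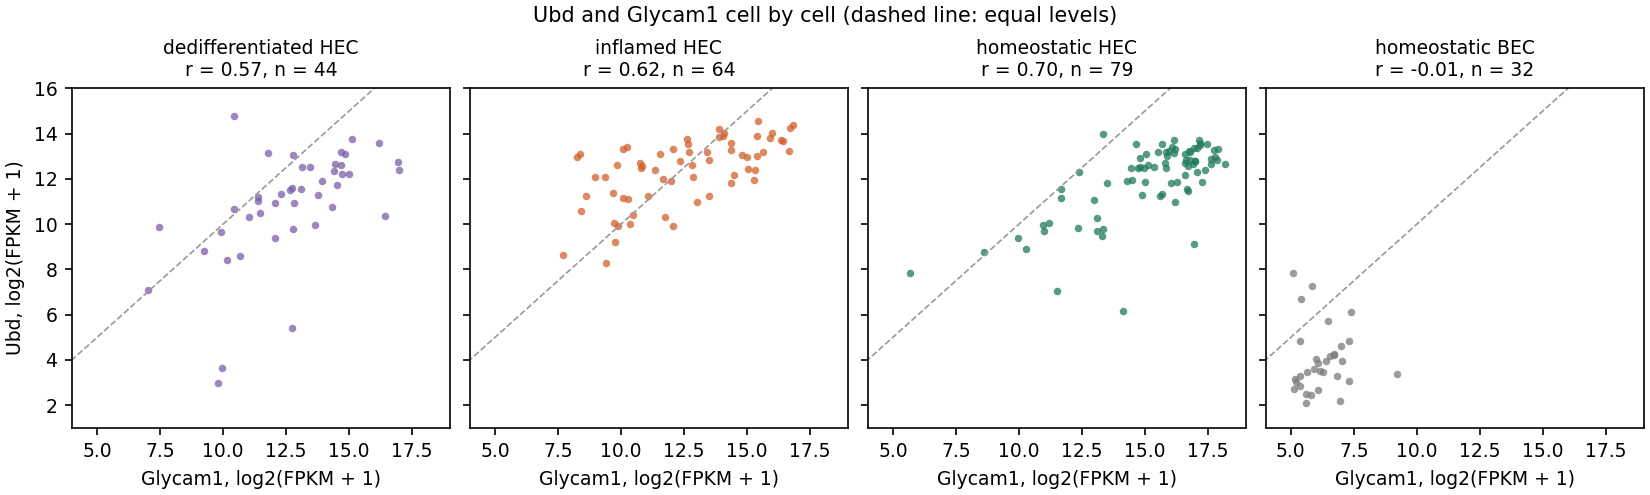
Ubd against Glycam1 in single cells of each group, both as log2(FPKM + 1), with the dashed line at equal levels. Both genes climb together in the 3 HEC panels (r 0.57, 0.62 and 0.70), while BEC form a low cloud with r -0.01, and the inflamed cells straddle the line.

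The balance of the pair differed between groups. Glycam1 had medians of 7027 FPKM in dedifferentiated HEC, 6350 in inflamed HEC, 59091 in homeostatic HEC and 66.2 in BEC. Mean Glycam1 was lower than in homeostatic HEC by -2.42 in dedifferentiated and -2.62 in inflamed HEC, while the values for Ubd were -1.08 and 0.42. Ubd exceeded Glycam1 in 6 of 44 dedifferentiated, 28 of 64 inflamed, 3 of 79 homeostatic HEC and 3 of 32 BEC. The median of Glycam1 minus Ubd was 1.72 log2 units in dedifferentiated HEC, 0.11 in inflamed HEC, 3.41 in homeostatic HEC and 2.41 in BEC. Inflamed HEC thus had less of the mucin transcript than homeostatic HEC at a like level of Ubd.

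Genes at 1 FPKM in at least 50% of the cells of a group were ranked by r, which gave 2055 genes in dedifferentiated, 3139 in inflamed and 2777 in homeostatic HEC and 2050 in BEC. An r of 0.3 or more was found in 83 genes of dedifferentiated HEC (4.04%), 82 of inflamed HEC (2.61%), 94 of homeostatic HEC (3.38%) and 339 of BEC (16.5%). The homeostatic count was 54 without the 4 cells of that group that had under 3 high endothelial markers. The larger share in BEC stood beside the r of 0.56 between Ubd and the number of genes detected in those cells. That r was 0.15 in dedifferentiated, -0.04 in inflamed and 0.10 in homeostatic HEC. The r of Ubd with approximate depth was between -0.10 and 0.19 in all 4 groups.

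In homeostatic HEC the 15 genes of highest r were Glycam1, Clu, Mfge8, Ly6i, Ndufa11, Ces2g, Gcnt1, Sulf1, Cd63, Bace2, Serpinb9, Sh3bgrl, Ctsl, Cpq and Dsg2. They include Gcnt1, which builds the branched sugars of L-selectin ligands (0.46), and Sulf1, which trims sulfate from heparan sulfate (0.45). Secreted proteins are Clu, the chaperone clusterin (0.52), and Mfge8, which bridges dying cells and phagocytes (0.52). Genes of the endosome and lysosome are Cd63, a tetraspanin (0.45), and Ctsl, a protease (0.44). The last of the 15 was Dsg2, a desmosomal cadherin (0.44), and the next gene below was Mtch2 (0.43). These r chose the genes and count as no evidence.

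The same 15 genes were then read in groups that had not chosen them. In inflamed HEC all 15 had r above 0 and 9 reached 0.3, with a median of 0.35. Of all genes ranked there 47.2% were above 0 and their median was -0.01. Given Glycam1, itself 1 of the 15, the partial r there was near or below 0 for Clu (-0.01), Mfge8 (-0.13) and Cd63 (0.03). It was 0.3 or more for Sulf1 (0.41), Dsg2 (0.41) and Serpinb9 (0.31), and the others lay between. In dedifferentiated HEC 13 of 15 were above 0 and 3 reached 0.3 (Glycam1, Gcnt1 and Dsg2), with a median of 0.22, against 54.9% and a median of 0.02 for all genes. In BEC 12 of 15 were above 0 with a median of 0.12, close to the 77.1% and the median of 0.13 of all genes there. The 2 genes with r below 0 in dedifferentiated HEC were Ndufa11, a subunit of respiratory complex I (-0.11), and Ces2g, a carboxylesterase (-0.18). Given Glycam1, the partial r in dedifferentiated HEC ran from -0.25 (Ndufa11) to 0.26 (Dsg2), so none of the other genes reached 0.3. It was also below 0 for Clu, Mfge8, Ly6i, Ces2g, Cd63, Bace2 and Ctsl, and above 0 for the rest.

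**Figure D3:**
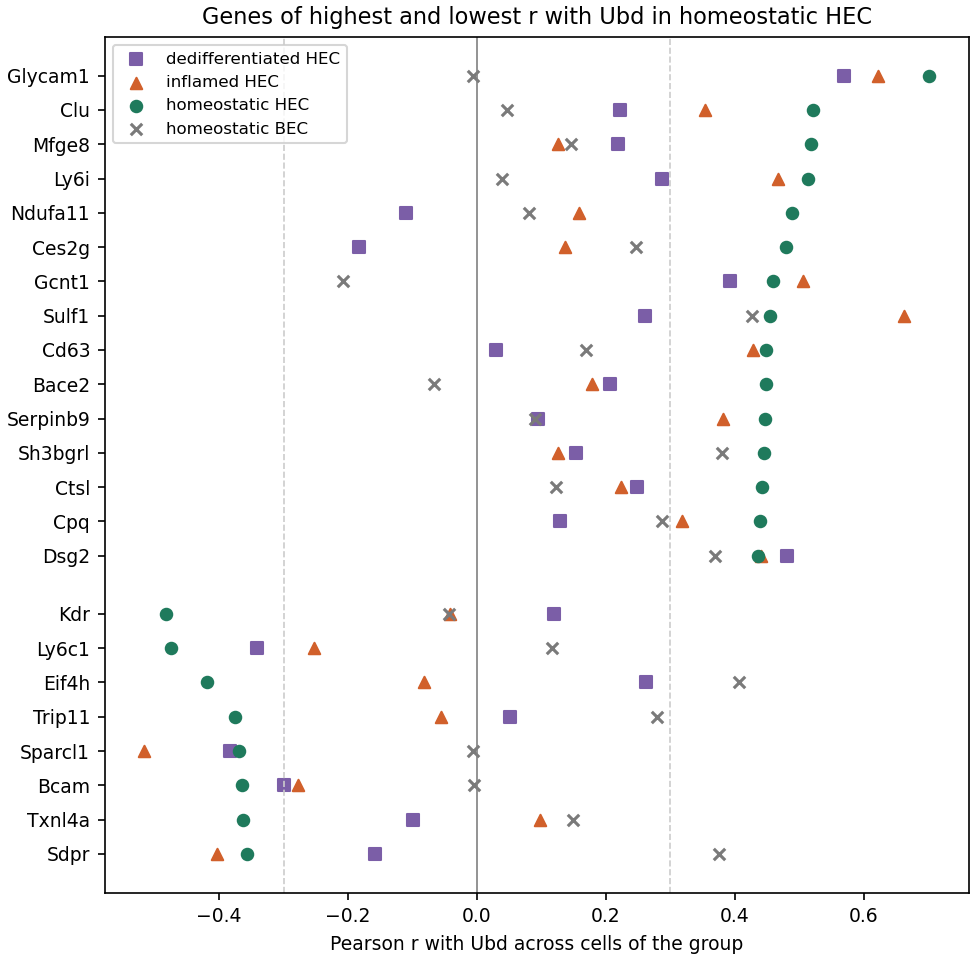
Pearson r with Ubd across the cells of each group for the 15 genes of highest and the 8 genes of lowest r in homeostatic HEC, with dashed lines at -0.3 and 0.3. Inflamed HEC have all 15 upper genes above 0 and dedifferentiated HEC 13, while the 8 lower genes scatter, with Sparcl1 at -0.3 or less in all 3 HEC groups.

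Among 1905 genes ranked in all 3 HEC groups, 6 had r of 0.3 or more in each. They were Glycam1, Cfb, Dsg2, Chst4, Cept1 and Man1a. Cfb, the complement factor B, had r 0.51 in dedifferentiated, 0.50 in inflamed and 0.42 in homeostatic HEC. Dsg2 had 0.48, 0.44 and 0.44 in the same order. Chst4, the sulfotransferase of L-selectin ligands, had 0.48, 0.44 and 0.39.

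Cept1, an enzyme of phospholipid synthesis, had r 0.32, 0.40 and 0.34, and Man1a, a mannosidase of the Golgi, had 0.30, 0.31 and 0.33. These last 2 depend on single cells. Without the 2 cells farthest in Ubd, Cept1 was at 0.19, 0.30 and 0.24 and Man1a at 0.17, 0.17 and 0.30 in dedifferentiated, inflamed and homeostatic HEC. Cfb stayed at 0.43 or more and Dsg2 at 0.43 or more without those cells. Without the HEC that had under 3 high endothelial markers, Dsg2 was at 0.24 in homeostatic HEC, and Chst4 was at 0.23 in dedifferentiated and 0.21 in homeostatic HEC. Of the 6 genes, Glycam1 alone kept r of 0.3 or more in all 3 groups under every alternative run. Given Glycam1, the partial r of Cfb was 0.31, 0.36 and 0.25 and that of Chst4 was 0.26, 0.24 and 0.06.

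The genes that went against Ubd in homeostatic HEC had higher medians in BEC in some cases and lower ones in others. The 8 of lowest r were Kdr, a receptor for vascular endothelial growth factor (-0.48), Ly6c1, a surface protein of capillary cells (-0.48), Eif4h (-0.42), Trip11 (-0.37), Sparcl1, a secreted matrix protein (-0.37), Bcam, a laminin receptor (-0.36), Txnl4a (-0.36) and Sdpr, a protein of caveolae (-0.36). The next gene was Sugt1 at -0.35. Their r was below 0 for 5 of 8 in dedifferentiated HEC, 7 of 8 in inflamed HEC and 3 of 8 in BEC. Sparcl1 alone of the 1905 genes had r of -0.3 or less in all 3 HEC groups, with -0.38 in dedifferentiated and -0.52 in inflamed HEC. Its median was 5.44 FPKM in dedifferentiated, 1.14 in inflamed and 15.4 in homeostatic HEC and 697.0 in BEC. Medians were also higher in BEC than in homeostatic HEC for Kdr, Ly6c1 and Sdpr, and slightly so for Bcam (1.72 against 1.17 FPKM). They were lower in BEC for Eif4h (0.49 against 15.6), Trip11 (0.615 against 1.37) and Txnl4a (6.715 against 24.4).

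Kdr did not keep its place, at 0.12 in dedifferentiated and -0.04 in inflamed HEC. Given Glycam1, the partial r of Kdr in homeostatic HEC was -0.18 and that of Ly6c1 was -0.05. In the homeostatic group the summed myeloid markers had r -0.39 with Ubd and the platelet markers 0.35, and in dedifferentiated HEC the myeloid markers had -0.48. The summed level of the 7 myeloid markers had a median of 0 FPKM in all groups, and Lyz2 was at 0 in all cells. Of the 5 platelet markers Ppbp, Gp9 and Gp1bb were at 0 in all cells, while Pf4 was at 1 FPKM or more in 49 of 79 homeostatic HEC. The part of myeloid cells or platelets in these correlations was not tested.

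The treated groups had leading genes of their own. In inflamed HEC the highest r were those of Sulf1 (0.66), Glycam1 (0.62), Ly96, the partner of the endotoxin receptor (0.52), Gcnt1 (0.51), Cfb (0.50) and Cmah, which modifies sialic acid (0.49). The lowest were Tspan12 (-0.54), Sparc, a matrix protein (-0.53), Sparcl1 (-0.52) and Fam198b (-0.46). In dedifferentiated HEC the highest were Glycam1 (0.57), Ly96 (0.55), Ccl21a (0.52), Cfb (0.51), Chst4 (0.48) and Dsg2 (0.48). The lowest there were Cxx1a (-0.54), Atf3, a stress-induced transcription factor (-0.52), Fam198b (-0.49) and Uqcrfs1 (-0.49). Rank correlation in dedifferentiated HEC gave -0.13 for Atf3, against -0.48 for Cxx1a, -0.40 for Fam198b and -0.34 for Uqcrfs1. Atf3 alone of these genes did not stay at -0.3 or less by rank.

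Ccl21a moved with Ubd in the treated groups and hardly in homeostatic HEC, with r 0.52 in dedifferentiated, 0.46 in inflamed and 0.08 in homeostatic HEC. Its medians were 64279, 21032 and 57488 FPKM in these groups and 60.1 FPKM in BEC. The r between Glycam1 and Ccl21a was also lower in homeostatic HEC, at 0.18, than in dedifferentiated (0.61) and inflamed HEC (0.75). Ccl21a has near-identical copies, so its reads may be split between them. Over all cells the 8 genes of highest r were Glycam1 (0.80), Pglyrp1 (0.77), Lrg1 (0.77), Dclk1 (0.72), Dsg2 (0.71), Chst4 (0.71), Spint2 (0.70) and Ccl21a (0.70). Within groups these r were lower: Spint2, a protease inhibitor, had 0.00 in dedifferentiated, 0.32 in inflamed and 0.34 in homeostatic HEC.

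By median FPKM, Ubd was above Ubb, a polyubiquitin gene, in inflamed and homeostatic HEC and below it in dedifferentiated HEC and BEC. Ubb had medians of 4681 FPKM in dedifferentiated HEC, 4381 in inflamed HEC, 4784 in homeostatic HEC and 3897 in BEC. Rps27a, which encodes ubiquitin fused to a ribosomal protein, had medians of 643.6 FPKM in homeostatic HEC and 296.7 in BEC. The difference of mean log2 level between homeostatic HEC and BEC was 1.38 for Rps27a and 0.40 for Ubb, and neither gene differed by 1 between a treated group and homeostatic HEC.

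**Figure D4:**
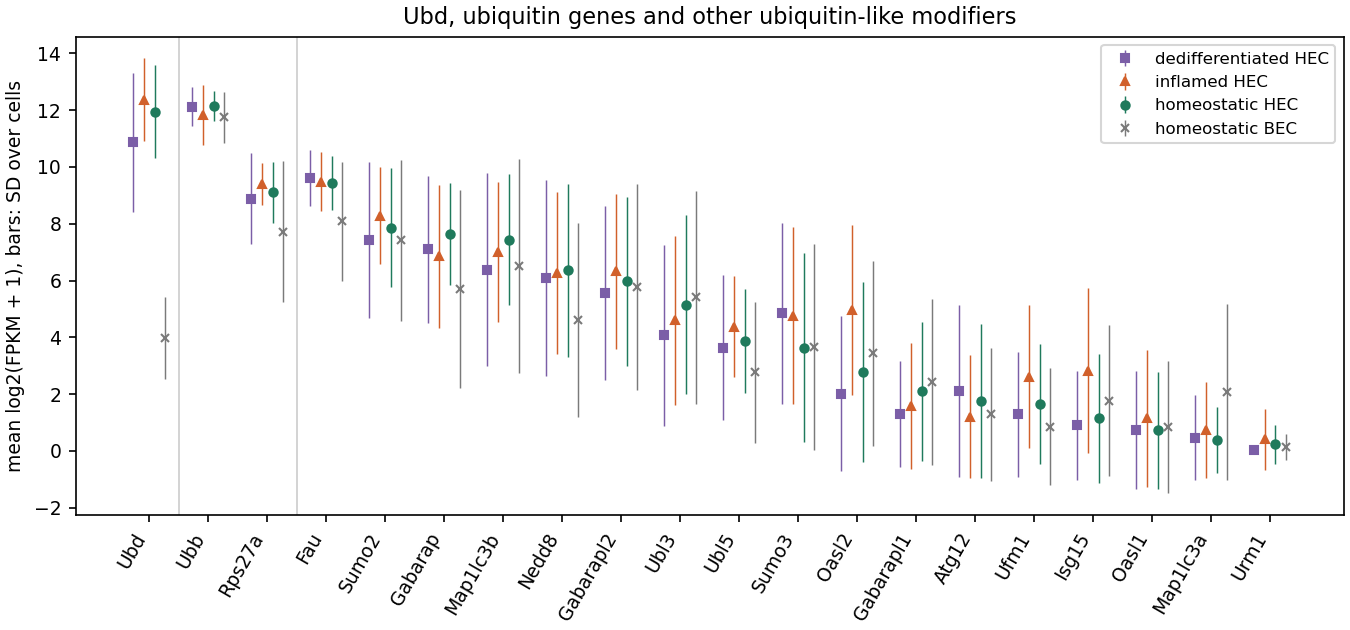
Mean log2(FPKM + 1) with SD over cells for Ubd, the ubiquitin genes Ubb and Rps27a and other ubiquitin-like modifiers in the 4 groups. Ubd is at 10.86 to 12.36 in the HEC groups and at 3.97 in BEC, the widest gap among these genes.

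In homeostatic HEC against BEC 17% of all genes were higher and 4.4% lower, with a median difference of 0.28. Of 18 other ubiquitin-like modifiers, 5 were higher and 1 lower there, with a median of 0.31. Among the higher ones were Gabarap (1.95), an autophagy modifier, Nedd8 (1.74), which activates cullin ligases, Fau (1.35) and Ubl5 (1.10), and the lower one was Map1lc3a (-1.70). In dedifferentiated against homeostatic HEC 1 was higher (Sumo3, 1.2) and 2 lower (Map1lc3b, -1.06, and Ubl3, -1.07), where 0.833% of all 9008 genes were higher and 9.52% lower by 1. In inflamed against homeostatic HEC 3 were higher and 0 lower, where 5.48% of all 9525 genes were higher and 2.6% lower. The higher ones were Oasl2 (2.19), Isg15 (1.68), the interferon-induced modifier, and Sumo3 (1.12). Across cells, 0 of 10 ranked modifiers in dedifferentiated and 0 of 13 in inflamed HEC reached r 0.3 with Ubd. In homeostatic HEC 2 of 11 did (Map1lc3b and Gabarap), and in BEC 4 of 12 (Sumo3, Nedd8, Gabarapl2 and Ubl3). Of all ranked genes 4.04%, 2.61%, 3.38% and 16.5% reached it in the same order of groups. Given Glycam1, the partial r in homeostatic HEC was 0.32 for Map1lc3b and 0.03 for Gabarap. Of the 5 genes of ISG15 conjugation, Isg15 and its protease Usp18 (1.19) were higher in inflamed than in homeostatic HEC, while Ube2l6 (-2.97) and Uba7 (-1.11), its conjugating and activating enzymes, were lower in dedifferentiated HEC.

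The enzymes that attach the Ubd protein were rarely detected. Uba6, its activating enzyme, was at 1 FPKM or more in 3 of 44 dedifferentiated, 16 of 64 inflamed and 12 of 79 homeostatic HEC and in 2 of 32 BEC. Ube2z, its conjugating enzyme, was found in 9, 23 and 21 HEC of these groups and in 7 BEC. Nub1, which binds the protein and speeds its breakdown, had medians of 0.34 FPKM in dedifferentiated, 0.53 in inflamed and 1.34 in homeostatic HEC and 0.32 in BEC. With zeros this frequent, absence in a cell was not distinguishable from failed capture. Sqstm1, the autophagy receptor, was lower by -1.11 in inflamed than in homeostatic HEC, and of the 7 genes of this list it was the only one to differ by 1 between a treated group and homeostatic HEC. Over all genes 5.48% were higher and 2.6% lower in the inflamed contrast. The shares were 0.833% and 9.52% in the dedifferentiated one.

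Other genes of the list were more often detected. Vcp, an unfolding enzyme that works ahead of the proteasome, was at 1 FPKM or more in 40 of 44 dedifferentiated, 62 of 64 inflamed and 77 of 79 homeostatic HEC and in 25 of 32 BEC. It was higher by 1.32 in homeostatic HEC than in BEC, the only list member past 1 there. That was 1 of 6 members compared, near the 17% of all genes that were higher in that contrast. Psmd4, a ubiquitin receptor of the proteasome, had r 0.32 with Ubd in homeostatic HEC, but -0.33 in dedifferentiated and 0.13 in inflamed HEC. No other ranked member of the list reached 0.3 in any group. In homeostatic HEC 1 of 4 ranked members thus reached it, against 3.38% of all ranked genes. Nub1 had r 0.37 in BEC, where it was at 1 FPKM in 14 of 32 cells and so was not ranked. Neither Ubb nor Rps27a reached 0.3 in any group. Mitotic genes named as partners of the human protein, such as Mad2l1 and Aurka, were too rarely detected to be ranked in any group.

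Some proteasome genes differed between the cell types and between the HEC groups. Of 14 genes of the standard core, 8 were higher in homeostatic HEC than in BEC and 0 lower. Of all genes 17% were higher there and 4.4% lower. The median of the core was 1.08 against 0.28 for all genes, and Psmb7 (4.50) had its largest difference. In dedifferentiated against homeostatic HEC 0 of the core were higher and 4 lower, where 0.833% of all genes were higher and 9.52% lower. The lower ones included Psmb7 (-2.51) and Psmb3 (-1.79), and the median of the core was -0.60 against -0.30 for all genes. In inflamed against homeostatic HEC 4 of the core were higher and 1 lower, with a median of 0.75 against 0.10 for all genes. Of all genes 5.48% were higher there and 2.6% lower. Of 12 genes of the immunoproteasome and of peptide loading, 2 were higher in inflamed than in homeostatic HEC (Psme2, 1.36, and Tap2, 1.33) and 0 in dedifferentiated HEC. In homeostatic HEC against BEC, Psmb8 was higher (1.30) and Psmb9 (-1.62) and Tap2 (-1.09) were lower.

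The lists of interferon-induced genes differed between the cell types in opposite directions. Of 18 interferon-γ response genes compared, 8 were higher in homeostatic HEC than in BEC and 0 lower, with a median of 0.78. The leading one was Cd74, the class II chaperone (5.17). Of 12 genes of the type I interferon response, 0 were higher and 5 lower, with a median of -0.68. The lower ones included Rsad2 (-4.55) and Ifit3 (-2.42), both antiviral genes. Over all genes 17% were higher and 4.4% lower, with a median of 0.28. For Ubd the difference between homeostatic HEC and BEC was 7.97. Ubd was chosen for its high level and only 3 of 9248 genes had a larger difference, so nearly every gene lies under it.

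In inflamed against homeostatic HEC, 8 of 13 type I genes were higher and 0 lower, with a median of 1.27, while Ubd differed by 0.42. Over all genes 5.48% were higher there and 2.6% lower, with a median of 0.10. Of 18 interferon-γ genes there, 6 were higher, such as Cxcl9, a T cell chemokine (2.19), and Gbp7 (1.82), and 2 were lower, Cd74 (-3.07) and H2-Aa (-1.79). In dedifferentiated against homeostatic HEC, 0 of 18 interferon-γ genes were higher and 4 lower, with a median of -0.45, and 3 of 12 type I genes were lower, with a median of -0.40. Over all genes 0.833% were higher and 9.52% lower there, with a median of -0.30. Both contrasts use the same homeostatic HEC. Across cells, interferon-γ genes at r 0.3 or more with Ubd were Gbp3, Igtp and Iigp1 in dedifferentiated HEC, Gbp2, Iigp1 and Cxcl9 in inflamed HEC and Irf1 in homeostatic HEC. That was 3 of 11, 3 of 14 and 1 of 12 ranked members, against 4.04%, 2.61% and 3.38% of all ranked genes. No type I gene reached it in any HEC group.

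**Figure D5:**
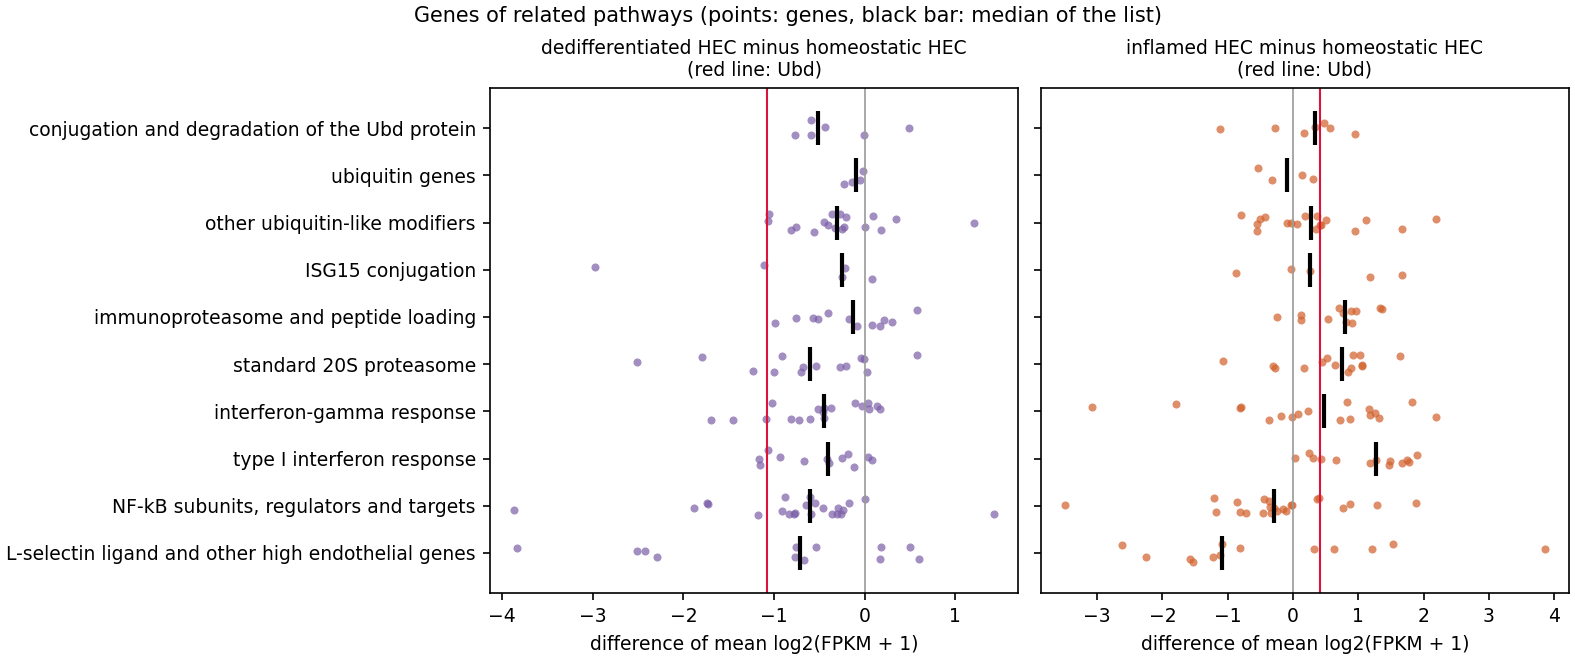
Difference of mean log2(FPKM + 1) from homeostatic HEC for genes of 10 lists, in dedifferentiated HEC (left) and inflamed HEC (right), with black bars at list medians and red lines at Ubd. Ubd is at -1.08 on the left and at 0.42 on the right, where the type I interferon list has a median of 1.27.

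Members of NF-kB signalling and its targets that differed between the cell types were higher in HEC. Of 23 compared, 11 were higher in homeostatic HEC than in BEC and 0 lower, with a median of 0.83 against 0.28 for all genes, of which 17% were higher and 4.4% lower. They include Nfkb2 (2.17) and Relb (2.12), the subunits of the pathway that lymphotoxin uses, and Nfkbia (2.32), an inhibitor and target. In dedifferentiated against homeostatic HEC, where 9.52% of all genes were lower, 1 was higher (Tnfrsf1a, a tumour necrosis factor receptor, 1.43) and 5 lower, among them Cxcl1 (-3.86), Tnfaip3 (-1.88), Birc3 (-1.74) and Nfkb2 (-1.73). In inflamed HEC 2 were higher (Ltbr, the lymphotoxin receptor, 1.88, and Tnfrsf1a, 1.29) and 3 lower (Cxcl1, -3.49, Nfkbia, -1.21, and Tnfaip3, -1.18). Over all genes 5.48% were higher and 2.6% lower in that contrast. Across cells, r of 0.3 or more with Ubd was found in 1 of 4 ranked members in dedifferentiated HEC (Birc2), 2 of 11 in inflamed HEC (Birc2 and Nfkbia) and 0 of 10 in homeostatic HEC, where 4.04%, 2.61% and 3.38% of all ranked genes had it. Ikbkb, a kinase of the pathway, had r -0.33 in inflamed HEC.

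Genes of L-selectin ligands and other high endothelial genes included several that moved with Ubd from cell to cell. At r 0.3 or more were 3 of 10 ranked members in dedifferentiated HEC, 5 of 12 in inflamed HEC and 6 of 12 in homeostatic HEC, with medians of 0.15, 0.28 and 0.29, while 4.04%, 2.61% and 3.38% of all ranked genes reached it. They were Glycam1 and Chst4 in all 3 groups, Ccl21a in both treated groups, Gcnt1 and Cd63 in inflamed and homeostatic HEC, and Fut7 and Chst2 in homeostatic HEC. Given Glycam1, the partial r of the others in these groups was under 0.3, from -0.01 (Ccl21a) to 0.29 (Gcnt1), both in inflamed HEC. By rank correlation Fut7 was at 0.13 and Chst2 at 0.24 in homeostatic HEC, and the others stayed at 0.3 or more. All 12 compared were higher in homeostatic HEC than in BEC, with a median of 6.06 against 0.28 for all genes, of which 17% were higher. The list was made of high endothelial genes with earlier results of these data known, so this contrast counts as no evidence. In inflamed against homeostatic HEC, where Ubd differed by 0.42, 7 of 13 were lower, with a median of -1.09 against 0.10 for all genes. The lower ones included Gcnt1 (-2.25) and the fucosyltransferase Fut7 (-1.58). The 3 higher ones were Selp (3.86), an adhesion molecule for leukocytes, B3gnt3 (1.53) and Madcam1 (1.22). Over all genes 2.6% were lower there and 5.48% higher. In dedifferentiated HEC, where Ubd differed by -1.08, 4 of 12 were lower (Gcnt1, -3.84, Serpina1b, -2.52, Glycam1, -2.42, and Fut7, -2.29) and 0 were higher. The median was -0.71 against -0.30 for all genes, of which 9.52% were lower and 0.833% higher.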

How the data were processed

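The deposited table holds FPKM values made by the authors for 24049 genes and 220 cells, 1 library a cell. The submitters' processing notes name CASAVA 1.8, RSEM 1.2.18 and mm10. What each was used for is not given in the sources used here, and neither are the annotation, filters and treatment of doublets. Cells were grouped by the labels. Since FPKM cannot enter a count model and each group is 1 sample, no test was run.

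Values were taken as log2(FPKM + 1) with Python 3.11.15, numpy 2.4.6, pandas 2.3.3 and scipy 1.17.1. A pair of inflamed cells with r above 0.9 was averaged. Differences are of means over cells, for genes at an FPKM of 1 in over 10% of the cells of at least 1 group, and a list member with a difference of 1 was counted as higher or lower. Correlations with Ubd covered genes at an FPKM of 1 in at least 50% of the cells of a group, and an r of 0.3 was counted. Genes chosen in homeostatic HEC were read in the other groups without that limit on cells. Depth was approximated from the step size of low values in 3445 genes with 1 transcript, so fragment numbers are estimates. The procedures were tested on simulated data. Reads were amplified without molecular tags, so they do not count molecules.

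Named genes were the 15 of highest and 8 of lowest r in homeostatic HEC, the 6 highest and 4 lowest in inflamed and in dedifferentiated HEC, those at 0.3 in all 3 HEC groups, the 8 highest over all cells, the neighbours of Ubd and members of the 11 gene lists. Predicted, ribosomal, haemoglobin and small RNA names were left out of the ranked choices, and some list members are not reported here. Sugt1 and Mtch2 are named as the genes next past those limits. Ubd, the lists and the limits were chosen with earlier results of these data known. Of the 15 genes, 9 had a promoter in the RefSeq table, none with the κB-like motif. Of all 27025 genes with a promoter there 13.5% had it, and 9 genes are too few to differ visibly from that share.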

Additional observations from a re-analysis of the deposited data

How the results depend on the processing

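The 5 differences in Ubd and the correlations were recomputed with other pseudocounts (0.1 and 10), summaries, scalings and cells. With a pseudocount of 10, the difference from BEC was 6.16 for dedifferentiated, 7.60 for inflamed and 7.19 for homeostatic HEC, and by medians it was 7.76, 9.10 and 8.96. For dedifferentiated against homeostatic HEC the difference was -0.49 as a log2 ratio of arithmetic means, and -0.63 without the HEC with under 3 high endothelial markers, a choice made after the data had been seen. Without those cells dedifferentiated HEC exceeded BEC by 7.52, and 54 genes in place of 94 reached r 0.3 in homeostatic HEC. The other alternatives kept these differences within 0.5 and on their side of 1. No difference changed sign, and inflamed against homeostatic HEC ran from 0.15 to 0.51. The counts of genes at r 0.3 ran from 63 to 118 in dedifferentiated, 67 to 108 in inflamed and 54 to 109 in homeostatic HEC. Of the 15 genes, 12 to 14 were above 0 in dedifferentiated and 14 or 15 in inflamed HEC. Over 759 values of r for single genes, 727 stayed within 0.1, 32 moved by 0.1 or more and no r at 0.3 or beyond changed sign. Every cell had Ubd at 1 FPKM, so that limit on cells removed none. By rank correlation, Cfb, Cept1 and Man1a were at 0.28, 0.21 and 0.19 in homeostatic HEC. Of the 15 genes, Bace2 (0.28), Sh3bgrl (0.25) and Ctsl (0.24) also fell under 0.3 there by rank, and the others stayed above it. No paired analysis was possible because the numbers in the labels count cells and pair none. Low capture limits all statements on rarely detected genes.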

Other observations

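The summed FPKM of a cell and its Ubd value went together in HEC, with r 0.43 in dedifferentiated, 0.40 in inflamed and 0.52 in homeostatic HEC and -0.16 in BEC. With Ubd, Glycam1 and Ccl21a taken out of the sum, r was -0.20 in dedifferentiated, -0.16 in inflamed and -0.16 in homeostatic HEC and -0.17 in BEC. Genes of dissociation and heat shock, summed, had r -0.28 with Ubd in dedifferentiated, -0.04 in inflamed and 0.04 in homeostatic HEC and -0.26 in BEC.

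Cell cycle genes were found in few cells. Top2a reached 1 FPKM in 0 of 44 dedifferentiated, 21 of 64 inflamed and 3 of 79 homeostatic HEC and in 0 of 32 BEC, and Mki67 in 2, 16, 6 and 0 cells of the same groups.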
